A study of Mus musculus with 18 samples.

Results

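The genes described here encode 10 carriers of the importin beta family that move proteins through the nuclear pore: the importers Kpnb1, Tnpo1, Tnpo2, Tnpo3, Ipo5, Ipo7 and Ipo9, the two-way carrier Ipo13, and the exporters Xpo1 and Cse1l. They are a list of symbols, with no threshold on their values, and were found as 10 of the 21288 genes in the count table of mouse dorsal root ganglia, where the cell bodies of sensory neurons lie. All 10 passed the filter on low counts and were among the 19010 genes tested. Their smallest count in any library was 417.

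The mice were wild type (WT) or lacked importin alpha3 (imp{alpha}3 knockout, KO), the product of Kpna4 and one of the adaptors that Kpnb1 carries. Ganglia were taken without injury (naive; 4 WT and 4 KO libraries), 7 d after spared nerve injury (SNI; 3 WT and 3 KO) or 2.5 months after SNI (1 WT and 3 KO). In SNI, used to model neuropathic pain, some branches of the sciatic nerve are cut and another is spared. The labels used here name no sham operation, age, sex, strain, type of knockout or batch. Time after injury therefore cannot be told apart from surgery, age or technical differences between the sets of libraries.

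Carriers of this family bind cargo on one side of the nuclear envelope and let it go on the other, under control of the small GTPase Ran: importers drop cargo when they meet RanGTP in the nucleus, and exporters hold cargo only together with RanGTP. Kpnb1 (importin beta1) imports proteins with a classical nuclear localization signal through an importin alpha adaptor, and Cse1l (also called CAS) brings the emptied importin alpha back to the cytoplasm. In axons of injured sensory neurons, importins together with the motor dynein are known to carry injury signals back to the cell body, and Kpnb1 mRNA is itself translated in the axon.

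The promoters of Kpnb1, Tnpo3 and Tnpo2 are printed because these are the pair of carriers whose levels followed each other most closely (Kpnb1 and Tnpo3) and 1 of the 2 carriers that passed a test (Tnpo2). Each is the 250 bases before the start of the gene in RefSeq annotation of GRCm38.p6, on the gene's own strand, 5′ to 3′. Capitals mark matches, on either strand, to CACGTG (the E-box core), CCAAT and GGGCGG (the GC box of Sp1-type factors).
Kpnb1 (chr11:97187893-97188142, minus strand): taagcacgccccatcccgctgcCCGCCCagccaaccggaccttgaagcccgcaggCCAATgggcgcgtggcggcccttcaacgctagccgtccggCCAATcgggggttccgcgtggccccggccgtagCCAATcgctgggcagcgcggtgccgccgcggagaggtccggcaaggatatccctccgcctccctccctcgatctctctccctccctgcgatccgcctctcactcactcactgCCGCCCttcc
Tnpo3 (chr6:29609850-29610099, minus strand): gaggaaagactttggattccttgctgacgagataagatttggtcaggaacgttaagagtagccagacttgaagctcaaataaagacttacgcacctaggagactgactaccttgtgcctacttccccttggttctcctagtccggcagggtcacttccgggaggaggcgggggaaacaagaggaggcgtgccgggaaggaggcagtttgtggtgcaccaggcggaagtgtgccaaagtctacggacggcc
Tnpo2 (chr8:85036643-85036892, plus strand): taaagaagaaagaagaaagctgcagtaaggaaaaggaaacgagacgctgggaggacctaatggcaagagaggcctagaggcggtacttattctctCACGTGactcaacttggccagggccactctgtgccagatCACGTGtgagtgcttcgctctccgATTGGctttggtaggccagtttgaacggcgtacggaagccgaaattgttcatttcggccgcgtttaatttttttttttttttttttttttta
The Kpnb1 window held 3 CCAAT and 2 GGGCGG matches, the Tnpo2 window 2 CACGTG and 1 CCAAT, and the Tnpo3 window had 0 matches to any of these. Windows were matched for 9 of the 10 carriers. CACGTG was in 2 of them, CCAAT in 4, GGGCGG in 6 and TGACGTCA (the cAMP response element) in 0, against 6.02%, 33.8%, 32.7% and 1.55% of all 32851 windows searched. A match is a run of letters and not evidence that a factor binds there.

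Total counts per library ran from 18634506 to 21585680 in naive ganglia, from 12565448 to 14157742 at 7 d and from 15501075 to 19283086 at 2.5 months. Kpna4 checked the genotype labels: it stood at 1.01 to 5.63 CPM (the count scaled to a common library size) over all KO libraries and at 89.6 to 136 CPM over all WT libraries. Sensory neuron markers were present throughout, with 10 of 10 tested and a summed level of 10500 to 20700 CPM. Markers of other cells were present too: myelinating Schwann cell genes summed to 2450 to 11000 CPM and macrophage genes to 30.8 to 402 CPM. In whole ganglia, fewer cells of a type and less RNA per cell cannot be told apart. Several libraries stood apart. In ko_40, mitochondrial genes took 12.3% of counts, against at most 8.44% elsewhere. In naive ko_39, 6 axon injury genes summed to 462 CPM against 202 to 335 CPM in the other naive libraries. In ko_422_7d and in all 4 of the 2.5 months libraries, long genes were low relative to short ones, as described with the 2.5 months values.

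Compared per length of transcript, the carriers differed widely among themselves. In naive WT ganglia Kpnb1 was at 31.2 ± 2.18 CPM per kb (SD, n = 4) and Tnpo2, which imports RNA-binding proteins and is most like Tnpo1, at 27.6 ± 2.91. Ipo5, an importer of ribosomal proteins and histones, followed at 19.9 ± 1.23 CPM per kb, and Ipo13 at 19.2 ± 1.04. The libraries of Kpnb1 and Tnpo2 overlapped, and so did those of Ipo5 and Ipo13. A middle group held Cse1l at 11.4 ± 0.338, Xpo1 at 10.9 ± 1.18 and Ipo9, a histone importer, at 10.4 ± 0.156 CPM per kb. The libraries of Xpo1 overlapped those of both neighbours in this order. Xpo1 (CRM1) is the main exporter of proteins with a leucine-rich export signal. Ipo7, a partner of Kpnb1 in histone H1 import, was at 7.92 ± 0.892 CPM per kb. Tnpo1, an importer of RNA-binding proteins, stood at 5.61 ± 0.702 and Tnpo3, the importer of SR splicing factors, at 4.99 ± 0.328, with overlapping libraries. These levels divide by the length of all annotated exons merged, from 4.207 kb in Ipo13 to 13.1 kb in Tnpo3, so they understate genes with long unused exons.

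**Figure D1:**
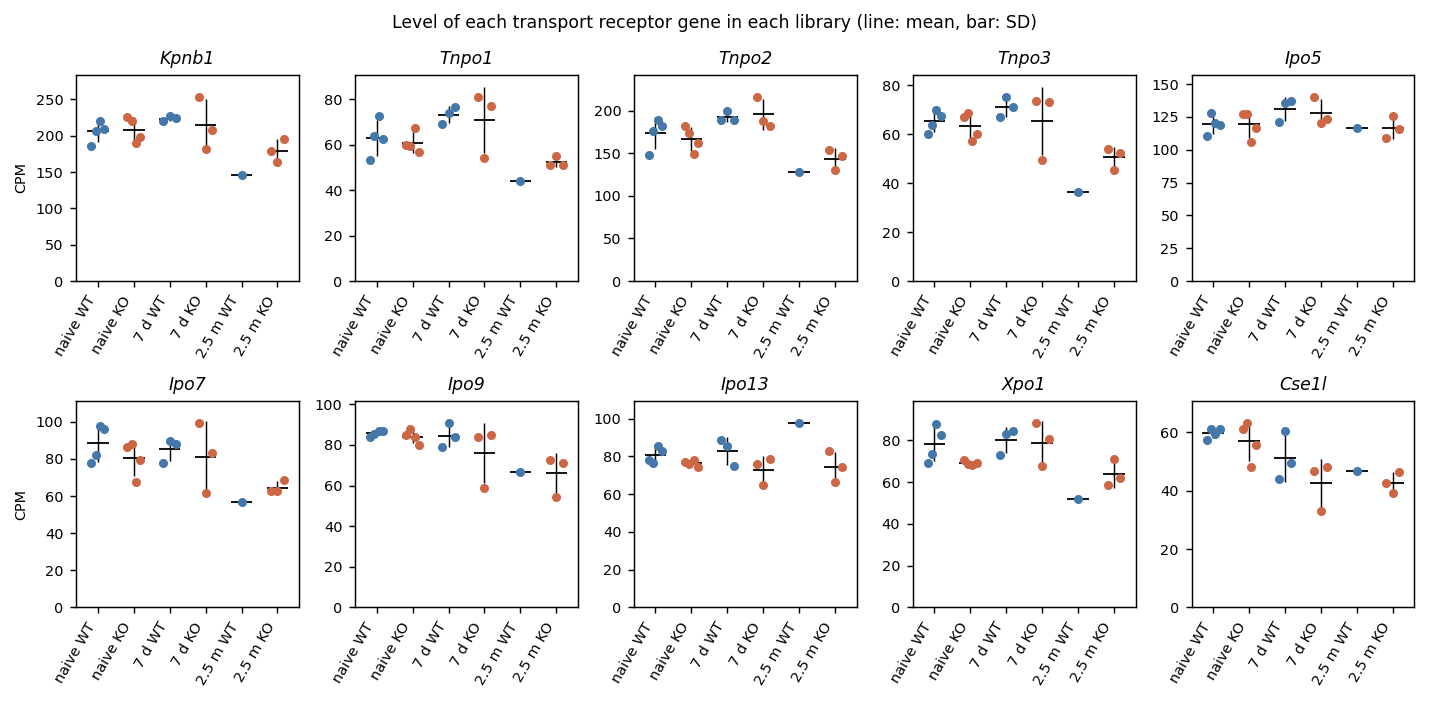
Level of each carrier (CPM, 1 panel per gene) in each of the 18 libraries by group; points are libraries, horizontal lines group means and vertical bars the SD. The groups overlap for most carriers, and the 2.5 months libraries lie low for Kpnb1, Tnpo1 and Tnpo3, while Ipo13 is highest in the 2.5 months WT library.

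Without injury, none of the carriers was separated between KO and WT ganglia. Kpnb1 stood at 226, 220, 190 and 199 CPM in the 4 naive KO libraries and at 186, 207, 221 and 210 CPM in the 4 naive WT libraries. The ranges overlapped almost wholly, and the log2 difference, KO minus WT, was 0.02 ± 0.10 (SE). Cse1l, whose main cargo is importin alpha, was at 61.3, 63.3, 48.2 and 55.6 CPM in KO and at 57.4, 61.2, 59.6 and 61.2 CPM in WT. The highest and the lowest library were both KO, and the difference was -0.07 ± 0.13. Xpo1 was the carrier with the lowest estimate, at 68.1 to 70.5 CPM in KO and 69.3 to 87.9 CPM in WT, or -0.18 ± 0.10 on the log2 scale (95% interval -0.40 to 0.04). None of the 10 was called at an adjusted p under 0.05 by edgeR's quasi-likelihood test, where 0.0263% of all genes were. None had an unadjusted p under 0.05 either, and DESeq2 called 0 of 10. The 95% intervals of single genes ran from 0.751 to 1.18 of the WT level (Ipo7 for the lower and Kpnb1 for the upper bound). For each gene, differences inside its own interval were not excluded.

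At 7 d after SNI, KO and WT were again not separated for any carrier. Cse1l was at 46.6, 33.1 and 48.2 CPM in KO and at 44, 60.5 and 49.4 CPM in WT, a log2 difference of -0.27 ± 0.15 (adjusted p = 0.612 with edgeR). The lowest library was ko_422_7d and the others overlapped. Ipo13, which imports exon junction and SUMO pathway proteins and exports a translation initiation factor, was at 75.9, 64.6 and 78.3 CPM in KO and at 88.6, 85.5 and 74.7 CPM in WT, or -0.19 ± 0.11 on the log2 scale. Among the 10 carriers 0 were called, against 0.00526% of all genes, with 0 at an unadjusted p under 0.05 and 0 by DESeq2. Intervals of single genes ran from 0.670 (Cse1l) to 1.20 (Tnpo2) of the WT level.

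The mean of both genotype differences gave narrower intervals, from 0.773 to 1.11 of the WT level over the 10 carriers, and again 0 called by edgeR or DESeq2 and 0 at an unadjusted p under 0.05, where 0.0421% of all genes were called. All 10 estimates were below 0, from -0.02 to -0.17 on the log2 scale with a median of -0.09, beside a median of 0.02 over all genes. That run of signs depended on the setting. With DESeq2 all 10 stayed below 0. Without ko_422_7d, 6 carriers were below 0 and 2 above, with a median of -0.01. With the gene length trend removed, 7 were below 0 and 3 above, with a median of -0.05. Without ko_39, ko_40 and ko_422_7d, 4 carriers were below 0 and 3 above, with a median of 0.00. The test of whether injury acted differently in the genotypes called 0 of the 10 carriers, beside 0.0105% of all genes. Its estimates ran from -0.20 for Cse1l to 0.16 for Xpo1 on the log2 scale, none with an unadjusted p under 0.05 and none called by DESeq2.

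**Figure D2:**
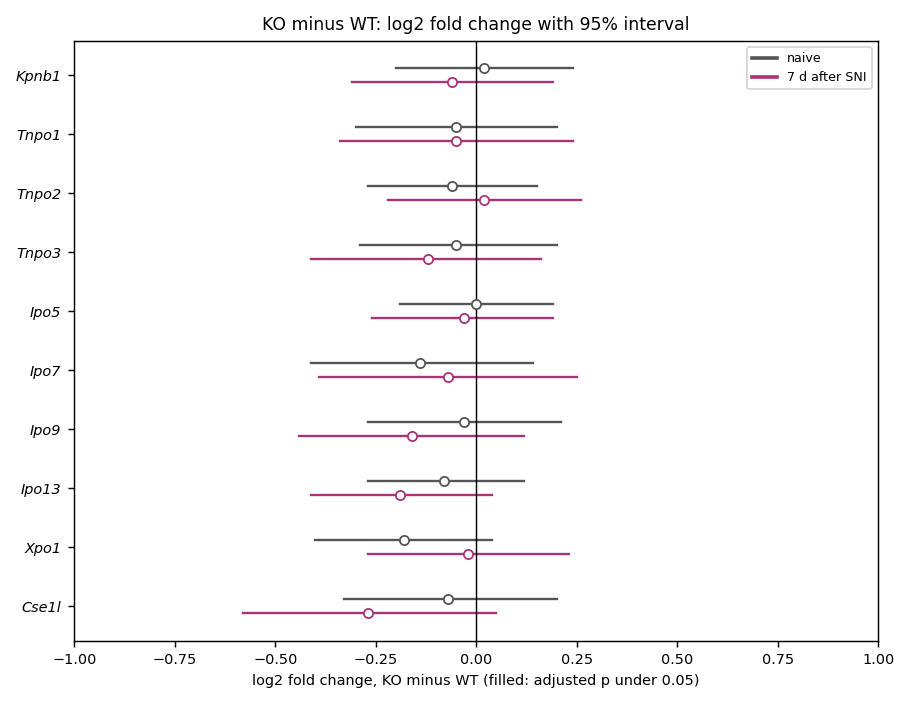
Log2 fold change of KO minus WT for each carrier in naive ganglia and at 7 d after SNI; points are edgeR estimates and lines 95% intervals. All intervals cross 0, and the lowest estimate is that of Cse1l at 7 d.

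Cse1l, the exporter of importin alpha, was lower 7 d after injury than in naive ganglia, and Kpnb1, which carries importin alpha inward, did not pass the test. In the 6 libraries of 7 d, Cse1l lay between 33.1 and 60.5 CPM, and in the 8 naive libraries between 48.2 and 63.3 CPM. The 2 sets overlapped: wt_410_7d, wt_416_7d and ko_426_7d, 3 of the 6, lay within the naive range, the last 2 of these above only naive ko_40. Cse1l (ENSMUSG00000002718) is a protein-coding gene on chromosome 2, 166906040 to 166946389, plus strand, in GRCm38. Over both genotypes Cse1l fell to 0.800 of the naive level, a log2 change of -0.32 ± 0.10 (95% interval -0.53 to -0.12, adjusted p = 0.0270 with edgeR). The estimate was -0.42 ± 0.14 in KO (adjusted p = 0.0535) and -0.22 ± 0.14 in WT, and neither passed by itself. Cse1l was the 1 carrier of 10 called in this mean change, where 21.1% of all genes were called and 10.3% were called lower. A count of 1 in 10 is close to that background. The call was lost without ko_35 (adjusted p = 0.0525), naive ko_39 (0.0565), wt_409_7d (0.0749) or wt_416_7d (0.0603), with estimates of -0.31 to -0.27, and it held with the gene length trend removed (-0.28, adjusted p = 0.0239).

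Kpnb1 was at 254, 182 and 208 CPM in KO and at 220, 227 and 224 CPM in WT at 7 d. The KO libraries lay on both sides of the WT ones and spanned the naive range, and the mean log2 change was 0.08 ± 0.08 (95% interval -0.09 to 0.25). The transportins of RNA-binding proteins had the highest estimates. Tnpo1 was at 81.1, 54.1 and 76.9 CPM in KO and at 69, 74.1 and 76.4 CPM in WT, against 53.2 to 72.4 CPM over the naive libraries. Tnpo2 was at 216, 188 and 182 CPM in KO and 189, 200 and 189 CPM in WT, against 147 to 189 CPM. Their mean log2 changes were 0.22 ± 0.09 and 0.19 ± 0.08, each with an unadjusted p under 0.05 and neither called. With Cse1l they made 3 of 10 carriers under that threshold, beside 34.2% of all genes. Tnpo1 and Tnpo2 were called by edgeR when the gene length trend was removed (0.25, adjusted p = 0.00926 for Tnpo1 and 0.24, adjusted p = 0.0223 for Tnpo2). Under that setting 23% of all genes were called. The lowest 7 d library of Tnpo1, ko_422_7d, was also the one with the strongest length trend, and without it Tnpo1 was called at 0.30 (adjusted p = 0.00772). Apart from Cse1l, the other 6 carriers ran from -0.08 (Ipo9) to 0.12 (Ipo5) on the log2 scale.

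Within each genotype alone, 0 of 10 carriers were called at 7 d, by edgeR, in WT (background 3.18%) and in KO (background 13.5%). At an unadjusted p under 0.05 there were 0 in WT (16.8% of all genes) and 2 in KO, Cse1l and Tnpo2 (29.8% of all genes). DESeq2 called 0 in WT (6.01% of all genes) and 1 in KO, Cse1l (18% of all genes). In KO, Cse1l was called without ko_40 (-0.49, adjusted p = 0.0311), ko_426_7d (-0.52, 0.0304), wt_409_7d (0.0493) or wt_410_7d (0.0427), and Tnpo1 without ko_422_7d (0.38, 0.0374). The same ganglia showed the injury in other genes: all 6 axon injury genes (Atf3, Sprr1a, Gal, Npy, Sox11 and Gap43) were called higher in both genotypes, with a summed level of 1750 to 6380 CPM at 7 d. Over both genotypes 8 of 9 macrophage genes were called higher at 7 d, and lower calls went to 5 of 5 neutrophil genes (median log2 change -2.68), 4 of 5 endothelial genes (-0.70), 4 of 6 myelinating Schwann cell genes (-0.93) and 1 of 6 proliferation genes. Neutrophil genes summed to 7.47 to 124 CPM at 7 d and 208 to 1000 CPM in naive ganglia, and endothelial genes to 22.8 to 56.4 CPM and 57.4 to 108 CPM. Summed levels were 23.1 to 39.6 CPM for proliferation at 7 d and 32.5 to 55.1 CPM in naive ganglia. The part of these cells in the change of Cse1l was not tested.

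**Figure D3:**
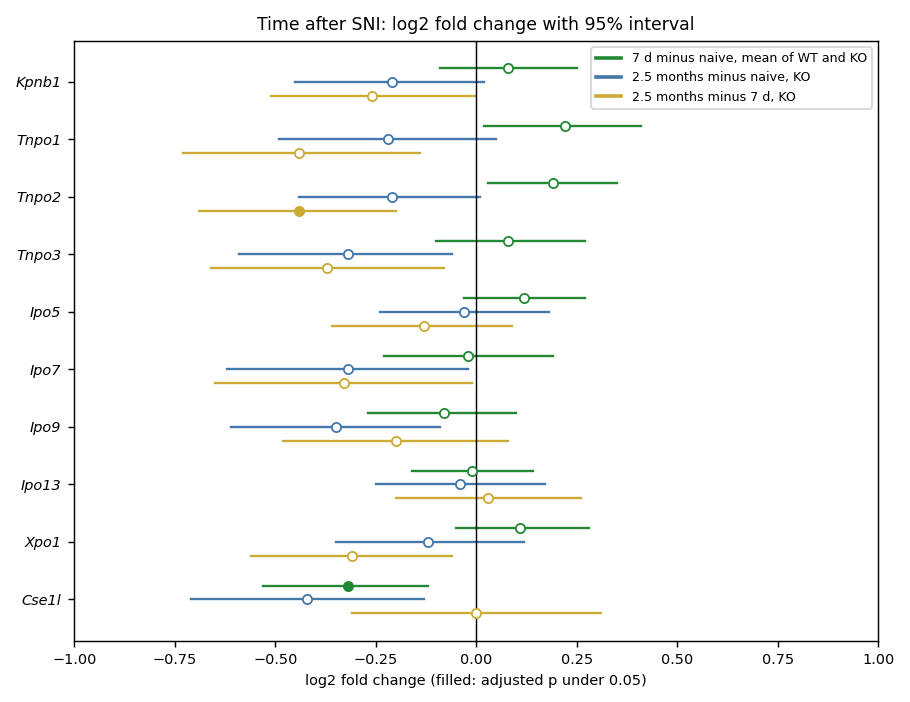
Log2 fold change with time after SNI for each carrier, as edgeR estimates with 95% intervals; filled points have an adjusted p under 0.05. The 2 filled points are Cse1l in the mean of 7 d against naive and Tnpo2 in 2.5 months against 7 d in KO.

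At 2.5 months after SNI, estimates in KO were below naive KO for all 10 carriers but none passed the test, and a trend with gene length across whole libraries moved with them. The estimates had a median log2 change of -0.22 beside -0.02 over all genes. Cse1l was at 42.6, 39.2 and 46.3 CPM, all below the naive KO libraries, a change of -0.42 ± 0.14 (adjusted p = 0.0562 with edgeR). Ipo9 was at 72.7, 54.3 and 71.1 CPM against 79.9 to 87.6 CPM in naive KO, or -0.35 ± 0.12. Tnpo3 was at 53.8, 45.5 and 52.3 CPM against 57 to 68.8 CPM, or -0.32 ± 0.13. Together with Tnpo1 these made 4 of 10 carriers whose 2.5 months libraries lay wholly below the naive ones, where 16.4% of all genes did. None of the 10 was called, beside 11.6% of all genes called and 4.57% called lower. An unadjusted p under 0.05 was found for 4 (Cse1l, Ipo9, Tnpo3 and Ipo7), beside 32.5% of all genes. DESeq2 called 2 (Cse1l and Ipo9), beside 22.3% of all genes. Leaving out ko_422_7d, which enters this comparison only through the shared spread, gave 4 calls (Cse1l, Ipo9, Tnpo3 and Ipo7) with 25.7% of all genes called. Over all genes the share called fell to 0.0748% without ko_367_2_5_m, 1.95% without ko_39, 2.05% without ko_35, 2.44% without ko_378_2_5_m and 7.44% without ko_95, each with 0 carriers called. Cse1l alone was called without ko_40 (-0.49, adjusted p = 0.0427), ko_426_7d (0.0455) or wt_410_7d (0.0485).

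Between 7 d and 2.5 months in KO, Tnpo2 fell to 0.735 of its level. Tnpo2 (ENSMUSG00000031691) is a protein-coding gene on chromosome 8, 85036915 to 85057583, plus strand, in GRCm38, downstream of the promoter printed above. It was at 216, 188 and 182 CPM at 7 d and at 154, 130 and 147 CPM at 2.5 months. The log2 change was -0.44 ± 0.11 (95% interval -0.69 to -0.20, adjusted p = 0.0294 with edgeR). It was the 1 carrier called, where 6.48% of all genes were called and 4.33% were called lower. Tnpo1 had the same estimate, -0.44 ± 0.14, with overlapping libraries: 81.1, 54.1 and 76.9 CPM at 7 d and 50.9, 54.8 and 51.1 CPM at 2.5 months. The low 7 d library was again ko_422_7d. An unadjusted p under 0.05 was found for 6 carriers, beside 24.6% of all genes. Cse1l was at 0.00 ± 0.15 and Ipo13 at 0.03 ± 0.11. The Tnpo2 call was lost without ko_420__7d (-0.37, adjusted p = 0.145), ko_367_2_5_m (-0.38, 0.111) or ko_378_2_5_m (-0.46, 0.0756), and with only these 6 libraries in the fit (-0.45, 0.187). Without ko_422_7d, 7 carriers were called lower (Kpnb1, Tnpo1, Tnpo2, Tnpo3, Ipo7, Ipo9 and Xpo1) and 27.2% of all genes were called. The share over all genes was 1.90% without ko_420__7d, 2.61% without ko_378_2_5_m, 3.21% without ko_367_2_5_m, 3.94% without ko_362_2_5_m and 1.81% with only these 6 libraries in the fit. In the same comparison 4 of 6 myelinating Schwann cell genes were called higher (median log2 change 1.40) and 4 of 6 axon injury genes lower (-2.21), and their part in the change of Tnpo2 was not tested. Both 2.5 months comparisons use the same 3 libraries, so their estimates are not independent.

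Gene length moved with these values. The slope of log2 level on log10 exon length, relative to the mean over libraries, was -0.45 to -0.29 in the 2.5 months KO libraries, -0.55 in the 2.5 months WT library and -0.69 in ko_422_7d. It was -0.06 in wt_409_7d and 0.04 to 0.24 in the other 12. The median carrier's deviation from its own mean was -0.31 to -0.17 on the log2 scale in 2.5 months KO, -0.44 in the 2.5 months WT library and -0.24 in ko_422_7d, and it was highest, at 0.28, in ko_420__7d. With the trend removed, the median change of the carriers from naive to 2.5 months in KO went from -0.22 to -0.03, and the range became -0.32 to 0.11. Tnpo3, the carrier with the longest merged exons, went from -0.32 to -0.02. Cse1l went from -0.42 to -0.32 ± 0.12 (adjusted p = 0.110 with edgeR). Against 7 d the median went from -0.28 to -0.14, and Tnpo2 was still called at -0.38 ± 0.11 (adjusted p = 0.0428). The size of each shift depends on exon length, which is 5.273 kb in Cse1l, 6.285 kb in Tnpo2 and 13.1 kb in Tnpo3. A smaller shift in a shorter gene therefore does not make its change firmer. A change in RNA that truly followed gene length would be removed as well, and the origin of the trend was not tested.

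**Figure D4:**
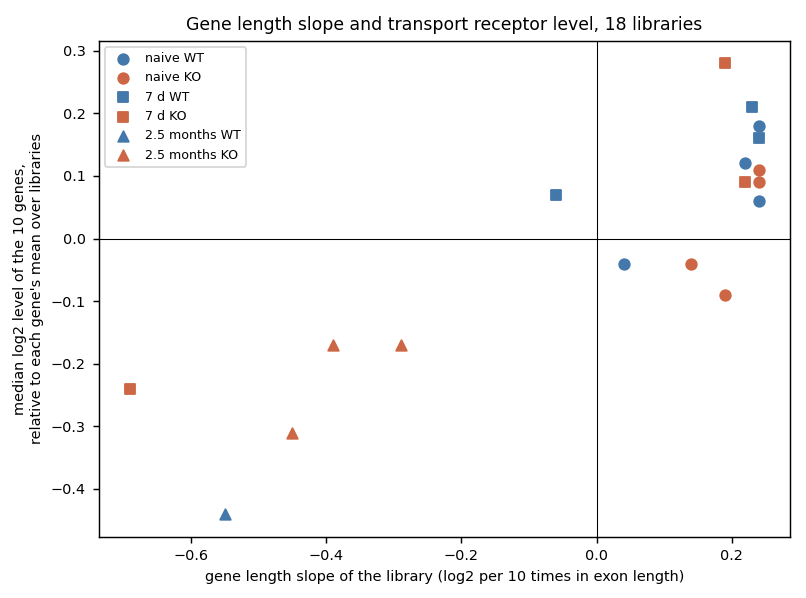
Median deviation of the 10 carriers from their own means (log2 CPM, y axis) against the slope of log2 level on log10 exon length (x axis). Each point is 1 library, with colour for genotype and shape for time. The 4 libraries of 2.5 months and ko_422_7d lie at negative slopes and low carrier levels.

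**Figure D5:**
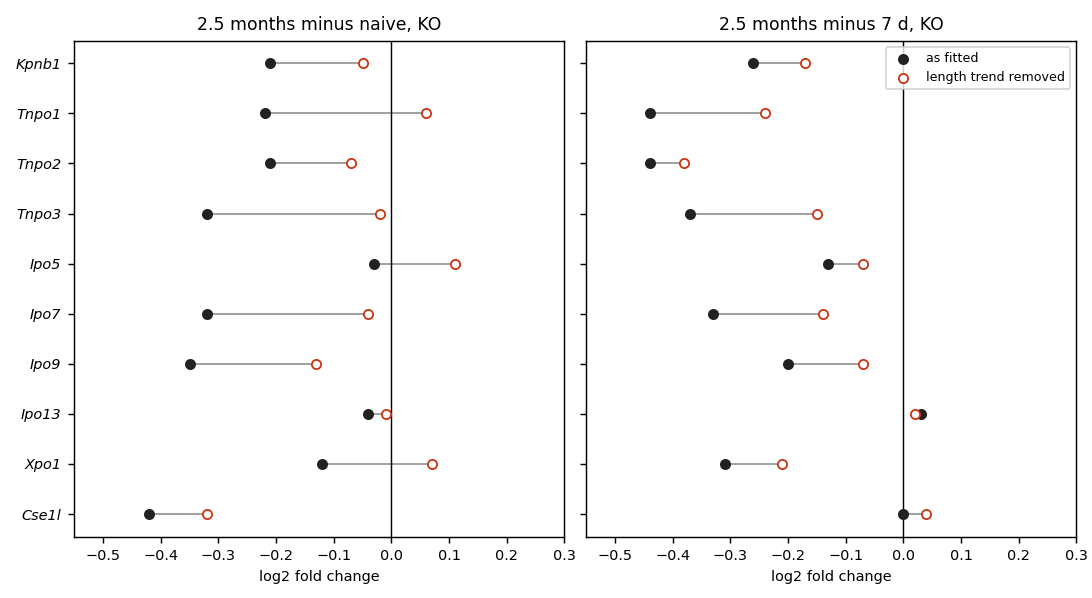
Log2 fold change of each carrier in the 2 comparisons of 2.5 months KO, as fitted (filled) and with the gene length trend removed (open). Most points move toward 0, by an amount that depends on exon length. Cse1l against naive goes from -0.42 to -0.32 and Tnpo2 against 7 d from -0.44 to -0.38.

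The single WT library of 2.5 months was the lowest of all 18 libraries for 6 carriers (Kpnb1, Tnpo1, Tnpo2, Tnpo3, Ipo7 and Xpo1) and the highest for Ipo13. Kpnb1 stood at 146 CPM there and at 180, 163 and 196 CPM in KO, and Tnpo3 at 36.5 CPM against 45.5 to 53.8 CPM. Ipo13 stood at 97.7 CPM against 82.8, 66.6 and 74.1 CPM in KO, a log2 difference, KO minus WT, of -0.39 ± 0.15. With the spread borrowed from the other groups, 0 of 10 carriers were called by edgeR and 0.0473% of all genes were called. With the gene length trend removed, the median log2 difference of the carriers went from 0.18 to 0.10. Tnpo3, with the longest merged exons, went from 0.47 to 0.36, and Ipo13, with the shortest, from -0.39 to -0.41. A lone library cannot show how WT mice vary at that time.

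Across the 18 libraries the levels of most importers followed each other. The closest pair was Kpnb1 and Tnpo3 (Pearson r = 0.937 of log2 CPM), then Tnpo3 and Ipo7 (0.907) and Tnpo1 and Xpo1 (0.899). Ipo13 followed them less closely, with r from -0.167 (Ipo5) to 0.405 (Ipo9), and Cse1l was closest to Ipo9 (0.814). Among 14700 genes averaging 1 CPM or more, the most alike to Kpnb1 were Fbxw11 (0.96), Mapk8 (0.946) and Tnpo3. For Cse1l they were Washc5 (0.959), Armh3 (0.959) and Dgkg (0.956), for Tnpo2 Nckap1 (0.95), Usp13 (0.947) and Snap91 (0.941), and for Ipo13 Atp13a2 (0.882), Rtl6 (0.847) and Ppp6r1 (0.845). Ipo9 had the closest companions of any carrier, Dpp8 and Usp9x, both at 0.979. These r describe shared libraries and are not tests, since all genes share the depth, injury and length trend of each library.

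Among the other transport genes listed, only Kpna4 was called between genotypes, and the other calls came with time after SNI. Rcc1, the nuclear exchange factor that charges Ran with GTP, was the 1 of 7 Ran cycle genes called at 7 d, where 3.18% of all genes were called in WT and 13.5% in KO. It stood at 7.37 to 8.98 CPM in the 8 naive libraries, 13.2 to 15.8 CPM in 7 d WT and 15 to 20.3 CPM in 7 d KO. Rcc1 rose by 0.82 ± 0.14 on the log2 scale in WT (adjusted p = 0.00234 with edgeR) and by 1.15 ± 0.14 in KO (adjusted p = 4.82e-05). At 2.5 months in KO it stood at 9.08 to 10.4 CPM and had fallen by 0.86 ± 0.15 since 7 d (adjusted p = 0.00253), a call lost with only those 6 libraries in the fit (adjusted p = 0.0674).

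Of 10 other importin beta family genes, 0 were called higher in any comparison and 0 differed between genotypes. The mean change at 7 d was called lower for Ipo11, which imports ubiquitin-conjugating enzymes (-0.31 ± 0.08, adjusted p = 0.0136), and for the exporter Xpo7 (-0.26 ± 0.07, adjusted p = 0.0182), 2 of 10 beside 10.3% of all genes. Xpo7 was also called in KO alone at 7 d (-0.37, adjusted p = 0.0276), a call lost without ko_422_7d (-0.25, adjusted p = 0.0911), ko_35 (0.0518), ko_39 (0.0644) or ko_40 (0.0554). At 2.5 months against naive KO, the exporter Xpo4 (-0.70 ± 0.16, adjusted p = 0.0177), Xpo7 (-0.48 ± 0.10, adjusted p = 0.0170) and Ranbp6 (-0.44 ± 0.13, adjusted p = 0.0438) were called lower, 3 of 10 beside 4.57% of all genes. With the length trend removed, Xpo4 was still called (-0.44, adjusted p = 0.0375), and Xpo7 (-0.12, adjusted p = 0.416) and Ranbp6 (-0.38, adjusted p = 0.0784) were not. Without ko_367_2_5_m none of these 3 passed, at adjusted p of 0.0914, 0.0775 and 0.191, and Xpo4 did not pass without ko_39 (0.0506). In the same comparison the adaptor Kpna6 (-0.52 ± 0.15, adjusted p = 0.0348) and the pore-bound SUMO ligase Ranbp2 (-0.66 ± 0.20, adjusted p = 0.0436) were lower, and both lost the call with the length trend removed (adjusted p = 0.0652 and 0.0859) and without ko_367_2_5_m (0.149 and 0.181). Calls in that comparison also depended on which library was left out for Ranbp6 (lost for 10 of 18 libraries), Kpna6 (5) and Ranbp2 (10). Of the 5 importin alpha genes tested, of 6 listed, Kpna4 was the 1 that differed between KO and WT.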

How the data were processed

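Polyadenylated RNA of dorsal root ganglia was sequenced. The authors deposited whole-number read counts per gene; STAR 2.4.2a0 and HTSeq 0.6.1p1 on GRCm38, with cutadapt, DESeq2 1.10.1 and bcl2fastq 2.17.1.14, are named in the submitters' processing notes. Which annotation release and strand option they used is not given in the sources used here. Without strand, exon overlap leaves counts of Tnpo2 (666 bases shared with A230103J11Rik), Tnpo3 (411 with Irf5) and Kpnb1 (466 with Gm11583) uncertain. GENCODE M21 (GRCm38) gave symbols and merged exon lengths for 21252 of 21288 genes.

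Counts were fitted with edgeR 4.0.16 (R 4.3.3): TMM scaling, filterByExpr (minimum count 10, total 15), robust quasi-likelihood F tests, 1 mean per group over 18 libraries, 12 residual degrees of freedom. A gene was called at a Benjamini-Hochberg adjusted p under 0.05 over 19010 genes. CPM uses the scaled library sizes. Unadjusted intervals are 95% for single genes. The length correction used lowess offsets (span 0.3). Likeness used log2(CPM + 1). Promoters came from RefSeq tables of GRCm38.p6.

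All 10 carriers were tested in every comparison, and values are printed for some of them in each. Other transport genes are given where called. Likeness is given for some carriers, with up to 3 genes of the largest r. Members, lists and alternatives were chosen with earlier results of these data known. Labels do not say that each library is a separate animal, so p-values measure the spread between libraries.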

Additional observations from a re-analysis of the deposited data

How the results depend on the processing

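Under 25 alternatives, the 100 pairs of carrier and comparison gave 2490 further estimates: 42 gained a call, 8 lost one and 139 uncalled estimates changed sign. No called estimate changed direction. In the 3 genotype comparisons, the interaction, 7 d against naive in WT and the comparison with the lone WT library, 0 carriers were called under any alternative run. In what follows, brackets give the share of all genes called under the same setting. For 7 d against naive in KO, the count of 0 became 1 with DESeq2 (18%) and 2 with the length trend removed (15.4%). It was 0 to 1 with each library left out (8.67% to 18%). For the mean of 7 d against naive, the count of 1 became 2 with DESeq2 (23.7%) and 3 with a mean of at least 1 CPM (24.4%). It became 3 with the length trend removed (23%) and 2 without ko_39, ko_40 and ko_422_7d (20.1%). With each library left out it was 0 to 2 (16.2% to 23.8%). For 2.5 months against naive in KO, the count of 0 became 2 with DESeq2 (22.3%) and 2 with only the compared groups (25%). It was also 2 without ko_39, ko_40 and ko_422_7d (14.6%), and 0 to 4 with each library left out (0.0748% to 25.7%). For 2.5 months against 7 d in KO, the count of 1 became 3 with DESeq2 (12.4%) and 0 with only the compared groups (1.81%). It became 7 without ko_39, ko_40 and ko_422_7d (27.2%), and was 0 to 7 with each library left out (1.9% to 27.2%). The cause of these changes in count was not tested. Cse1l's mean change at 7 d ran from -0.39 to -0.24 (adjusted p 0.0117 to 0.0749) and the Tnpo2 change from 7 d to 2.5 months from -0.50 to -0.37 (0.00174 to 0.187). Another scaling moved the median of all genes by under 0.1 on the log2 scale in every comparison. No paired analysis was possible because the groups share no library numbers. Alternatives for other transport genes were added after their calls were seen. The 2.5 months WT group has 1 library and borrows its spread.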
